A study of Mus musculus with 16 samples.

Results

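Cells holding at least 1 unique molecular identifier (UMI, the tag that counts an RNA molecule once) of Tnmd were compared with the Tnmd-negative cells of the same plates, after 6 or 9 days of tenogenic induction. Of the 4301 cells used in the series, 2192 came from the 6 plates of these time points (T6 and T9), and 295 of them (13.5%) were Tnmd-positive while 1897 were Tnmd-negative. The classes were chosen by the Tnmd count, so Tnmd is given as a description and every test of genes between the classes leaves it out. The UMIs per cell, and the thinning of cells to equal depth, still include it. Wells with fewer than 200 genes or 3000 UMIs were not used. The T6 or T9 cell just inside the UMI limit, of either class, held 3027 UMIs, and the well just outside it held 2977. Of the 112 wells left out of 2304, 7 held a Tnmd UMI.

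The study induced tendon-like cells from mouse induced pluripotent stem cells (iPSCs) that carry the ScxGFP transgene, a green fluorescent reporter driven by Scx regulatory sequence. Mesodermal cells (T0, no TGF-β2) were made from the iPSCs and then given recombinant human TGF-β2 for 3 days (T3), 6 days (T6) or 9 days (T9), with 3 plates of 384 wells at each time and all cells descended from 1 iPSC clone. Single cells that passed gates against doublets and dead cells were sorted into the wells without regard to Tnmd, and each plate became 1 library. The same experiment series holds Achilles tendon of 2-week-old mice, 2 wild type (Scx_Wt) and 2 lacking Scx (Scx_KO), measured in bulk. The labels do not say that the plates came from separate cultures. The p-values over plates measure how the difference between classes within a plate varies from plate to plate, which may be technical. The same 384 well barcodes served all 6 plates, and wells were kept apart by library.

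Tenomodulin, the type II transmembrane protein encoded by Tnmd, is a marker of maturing tendon and ligament cells. Its gene lies at chrX:133850980-133865577 on the plus strand of GRCm38. Scleraxis (Scx) is a basic helix-loop-helix transcription factor of the tendon lineage that is known to be needed for normal Tnmd expression. Tendon cells deposit type I collagen fibrils whose diameter is tuned by small leucine-rich proteoglycans such as keratocan and fibromodulin. Retinoic acid, which enters the results below, is a small lipid signal made by Aldh1a2, degraded by the Cyp26 enzymes and sensed by nuclear receptors such as Rarb.

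Tnmd-positive cells were found on every T6 and T9 plate. On the T6 plates 60 of 347, 49 of 375 and 33 of 359 cells were positive, shares of 17.3%, 13.1% and 9.19%. On the T9 plates the counts were 73 of 375, 45 of 373 and 35 of 363, shares of 19.5%, 12.1% and 9.64%. Without adjustment for depth, the ranges of the 2 time points overlapped almost fully. Their means were 13.2% ± 4.05 at T6 and 13.7% ± 5.12 at T9 (SD, n = 3 plates each). With every cell thinned to the same number of UMIs, the means were 7.59% ± 2.52 at T6 and 9.34% ± 2.15 at T9. These ranges, 4.74% to 9.51% at T6 and 7.16% to 11.5% at T9, overlapped only in part. The difference between the times was not tested. At T3 the share was 3.08% ± 0.237 (32 of 1038 cells, n = 3), and 2.12% ± 0.175 after the same thinning. At T0 no UMI was seen in 1071 cells, which allows a share of up to 0.280%. All intervals and limits of this kind cover counting error only.

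Most positive cells held few Tnmd molecules. A single UMI was the whole count in 119 of the 295 cells (40.3%), 113 cells held 2 to 9, and 63 held 10 or more. Those 63 cells carried 65.5% of all 1815 Tnmd UMIs, and the highest single cell held 59. Cells with 10 or more were present on all 6 plates, numbering 12, 6 and 4 at T6 and 23, 12 and 6 at T9. Summed over the positive cells of a plate, Tnmd stood at 569 ± 164 CPM (counts per 1e+06 UMIs of the class; SD, n = 6), between 335 and 785.

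**Figure D1:**
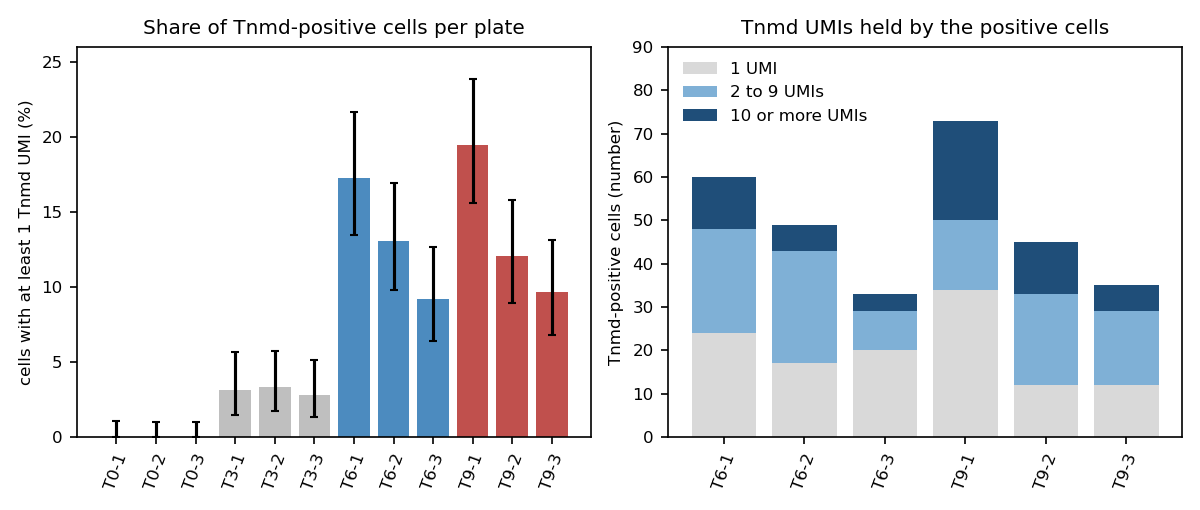
The left panel plots the percentage of cells with at least 1 Tnmd UMI on each of the 12 plates, with exact 95% binomial intervals (Clopper-Pearson); T0 plates are at 0, T3 plates near 3%, and T6 and T9 plates between 9.19% and 19.5%. The right panel splits the positive cells of each T6 and T9 plate by their Tnmd UMIs, and shows that cells with 1 UMI are present in number on every plate.

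A cell with more UMIs is more likely to hold 1 of Tnmd, so the rule itself favours deeper cells in the positive class. Positive cells were read a little more deeply than negative ones. Their median UMI count per cell was higher on 6 of 6 plates, by a mean log2 ratio of 0.22 ± 0.09 (SD). This is 1.16-fold with a range from 1.05 to 1.28 (exact sign-flip permutation test, two-sided, p = 0.03125, the smallest that 6 plates can give). The rule favours this direction and the count includes the Tnmd UMIs themselves, so the p-value does not show a difference apart from the rule. For comparison, 58 cells with UMIs of at least 3 pluripotent or at least 8 parietal endoderm markers were examined. Counting markers favours deep cells, and these cells were not shown to lack Tnmd, so they do not set a background. Of these 8 held a Tnmd UMI (13.8%, exact interval 6.15 to 25.4, median depth 17848.5 UMIs), 1 of them with 37 UMIs, against 13.4% of the other 2134 cells at a median depth of 8437.5. After thinning the shares were 6.90% and 8.53%. The share of the other cells with at least 1 UMI was therefore not clearly above that of the marker cells. At 2 or more UMIs the share was 3.45% (2 cells) in the marker cells and 8.15% in the rest. A mixed well cannot be told apart from a marker cell that expresses Tnmd. In sums over cells, fewer expressing cells and less RNA per cell cannot be told apart.

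UMIs were summed over the positive and over the negative cells of each plate, and the 12 sums, which held 340931 to 3728120 UMIs, were fitted with plate and class as terms (edgeR quasi-likelihood test, Benjamini-Hochberg adjustment over all 10177 genes tested). At an adjusted p under 0.05, 187 genes (1.84%) were higher and 123 (1.21%) lower in Tnmd-positive cells. Of these, 153 and 110 moved the same way on all 6 plates, and 54 and 36 differed at least 2-fold. The median log2 fold change of all genes was -0.01. With every cell thinned to 3000 UMIs but the class kept from the full counts, 107 genes were higher and 67 lower. The 163 higher and 108 lower genes that could still be tested all had the same sign, 92 and 47 of them past the test. This is a description, since the thinned UMIs are a part of those that had chosen the genes. With the class also taken from the thinned UMIs, 76 genes were higher and 80 lower. Genes named below that lost their call on thinned counts with the class kept were Actg2, Adamts2, Btg2, Egr1, Foxp1, Id1, Id3, Igf1r, Kdr, Mcam, Plod1, Prrx2, Rarb, Rdh10, Sox9, Thbd and Tpm2. The lower count depended more on single plates and on the tool: it was 59 without plate 2 of T6, 66 without plate 2 of T9, 81 without plate 1 of T6 or plate 3 of T9, and 74 with DESeq2, while the higher count was 138 to 168 with 1 plate left out and 172 with DESeq2.

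**Figure D2:**
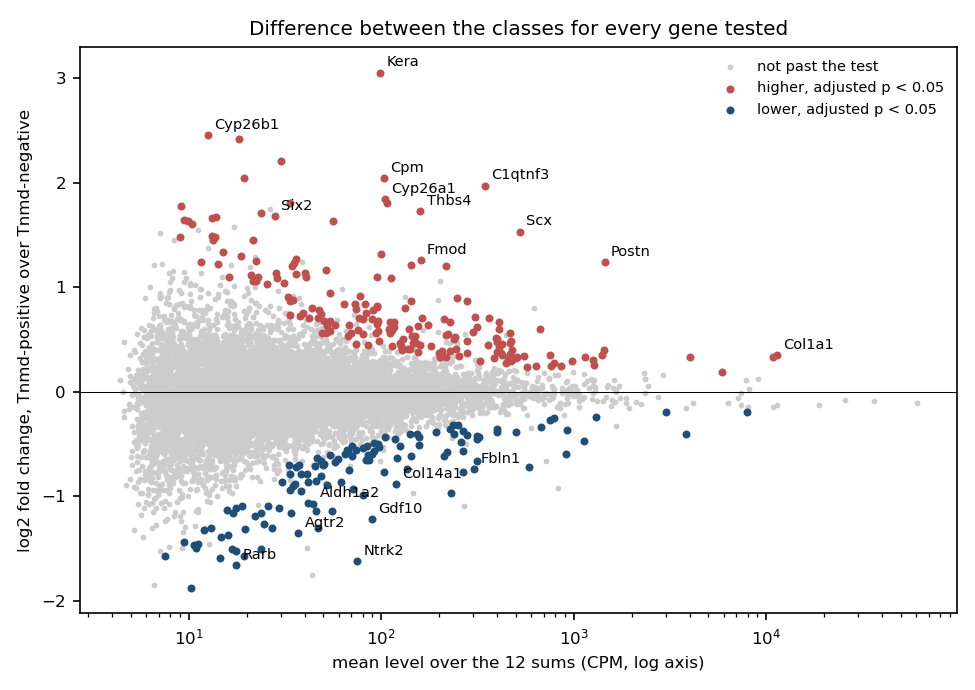
Each point is one of the 10177 genes tested, placed by its mean level over the 12 sums (CPM, log axis) and its log2 fold change between Tnmd-positive and Tnmd-negative cells. Red points (187) are higher and blue points (123) lower at an adjusted p under 0.05; Kera stands apart at the top, and Col1a1, at the far right, shows a small difference.

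List counts from here on stand beside the shares over all genes tested, 1.84% higher and 1.21% lower. Among transcription factors of the tendon lineage, 11 were tested, and 4 were higher, among them Six2, Scx and Foxp1, and 1 lower (Egr1), with a median log2 fold change of 0.35. Scx, at chr15:76457452-76459458 on the plus strand, reached 1148, 1183 and 957 CPM in the positive cells of the T6 plates against 498, 476 and 417 CPM in the negative cells. On the T9 plates it reached 414, 403 and 478 CPM against 155, 74.9 and 121 CPM. Positive cells were higher on every plate and did not overlap the negative ones within a time point, although positive T9 sums lay below the highest negative T6 sums. The log2 fold change was 1.53 (SE 0.18, adjusted p = 0.00819), a 2.90-fold difference. The gene lies within Bop1 on the opposite strand, and Bop1 had 382 UMIs to the 7816 of Scx.

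Counted per cell and thinned to equal depth, 66.5% ± 12.7 of positive and 38.9% ± 19.1 of negative cells held a Scx UMI (SD, n = 6). The difference of 27.6 percentage points ± 7.27 was seen on 6 of 6 plates (exact sign-flip permutation test, two-sided, p = 0.03125, the smallest possible). The negative cells differed by time, with shares of 56.8%, 56.1% and 55.8% on the T6 plates and 24.2%, 18.9% and 21.6% on the T9 plates. Without thinning the means were 81.7% of positive and 56.8% of negative cells.

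Six2, a homeobox factor of connective tissue progenitors and distal tendon, rose from a mean of 13.2 ± 4.78 CPM in negative cells to 42.9 ± 14.9 CPM in positive ones (log2 fold change 1.68, SE 0.27, adjusted p = 0.000214). The lowest positive plate, 18.5 CPM, lay just under the highest negative plate, the first of T9. The forkhead factor Foxp1 rose by a log2 fold change of 0.47 (adjusted p = 0.0107). The Foxp1 call was lost without plate 3 of T6.

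Mkx, the homeobox factor that sustains collagen production in tendon, had 35.2, 47.7 and 6.94 CPM in positive cells at T6 and 36.1, 42.8 and 55.7 CPM at T9. The negative cells had 12.2, 18.3 and 13.7 CPM at T6 and 33.2, 26.3 and 23.2 CPM at T9. It was higher in positive cells on 5 of 6 plates with a log2 fold change of 0.81, which did not pass the test (adjusted p = 0.0649). It passed without plate 3 of T6 (0.96, adjusted p = 0.0169), with positive cells taken at 2 or more Tnmd UMIs (1.19, adjusted p = 0.00396), with no minimum of UMIs (0.82, adjusted p = 0.0475) and without the pluripotent and endoderm marker cells (0.81, adjusted p = 0.0438). Egr1, a mechanically induced zinc finger factor, was slightly lower (log2 fold change -0.24, adjusted p = 0.0229, lower on 5 of 6 plates). That call was lost when any 1 of plates 1, 2 or 3 of T6 or plate 2 of T9 was left out. Egr1 is also an immediate early gene, and Btg2, another gene of the dissociation and stress response, was lower too (log2 fold change -0.42, adjusted p = 0.00938, lost without plate 1 or 2 of T6 or plate 2 of T9). It was the 1 called gene of 18 tested in that list, which says little about the list, as 1.21% of all genes were lower.

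Kera, which encodes the proteoglycan keratocan and lies at chr10:97606879-97613692 on the plus strand, showed the highest fold change of all genes tested. Positive cells had 162, 197 and 74.0 CPM on the T6 plates and 186, 219 and 220 CPM on the T9 plates. Negative cells had 36.7, 11.5 and 20.1 CPM at T6 and 22.1, 16.3 and 17.5 CPM at T9. Every positive sum lay above every negative sum. The log2 fold change was 3.05 (SE 0.32, adjusted p = 0.00343), an 8.31-fold difference.

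Of the 8 small leucine-rich proteoglycans tested, Kera, Fmod and Aspn were higher and none was lower (median log2 fold change 0.49). Fmod (fibromodulin, a regulator of collagen fibril assembly) had a mean of 227 ± 99.8 CPM in positive and 93.4 ± 34.7 CPM in negative cells, with a log2 fold change of 1.26 (SE 0.11, adjusted p = 1.80e-09). Aspn (asporin) had 364 ± 138 against 196 ± 65.0 CPM (log2 fold change 0.87, adjusted p = 4.74e-08). The more broadly expressed members did not pass. Decorin (Dcn) stood at 1432 ± 622 CPM in positive and 1878 ± 902 CPM in negative cells, and biglycan (Bgn) at 1319 ± 420 and 1226 ± 412 CPM.

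Of 13 fibrillar and fibril-associated collagens, 6 were higher (Col5a2, Col11a1, Col12a1, Col6a3, Col1a1 and Col1a2) and 3 lower (Col14a1, Col6a2 and Col6a1). The largest rise was that of Col5a2, a chain of type V collagen that nucleates type I fibrils, with 151 ± 37.7 CPM in positive and 74.3 ± 33.5 CPM in negative cells (log2 fold change 1.09, adjusted p = 5.56e-05). Col11a1 rose by 0.72 (adjusted p = 1.06e-06) and Col12a1, a fibril-associated collagen of dense connective tissue, by 0.71 (adjusted p = 1.39e-05). The type I chains differed less, in the same direction on all 6 plates.

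Col1a1 had 13284, 5308 and 14678 CPM in positive and 11337, 4336 and 10822 CPM in negative cells of the T6 plates. At T9 it had 10414, 6906 and 26557 CPM against 7704, 5602 and 20060 CPM. Differences between plates were far larger than that between classes, and the log2 fold change within plates was 0.35 (SE 0.04, adjusted p = 2.39e-06). Col1a2 differed by 0.33 (adjusted p = 1.52e-05), whereas Col3a1 was at 8253 ± 2171 and 8105 ± 2164 CPM and did not pass (log2 fold change 0.03, adjusted p = 0.888).

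Type VI collagen, a pericellular microfibril built from several chains, split between the directions. Col6a3 rose by a log2 fold change of 0.52 (adjusted p = 0.000232), while Col6a1 fell by 0.47 (adjusted p = 8.12e-05) and Col6a2 by 0.59 (adjusted p = 0.00656). The Col6a2 call was lost without plate 3 of T9. Col14a1, a fibril-associated collagen, had 84.0 ± 54.9 CPM in positive and 155 ± 89.1 CPM in negative cells, lower on 6 of 6 plates (log2 fold change -0.88, adjusted p = 7.72e-05).

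Among 22 tendon glycoprotein and elastic fibre genes, 7 were higher (Thbs4, Postn, Htra1, Cilp, Tnc, Thbs2 and Sparc) and Fbln1 was lower. Thrombospondin 4 (Thbs4), a matrix protein of tendon and its muscle junction, had 191, 97.4 and 136 CPM in positive and 88.9, 51.9 and 39.2 CPM in negative cells at T6. At T9 it had 219, 219 and 639 CPM against 57.1, 53.8 and 125 CPM. All plates went the same way, with plate 3 of T9 the highest in both classes, and the log2 fold change was 1.73 (SE 0.18, adjusted p = 0.000183).

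Periostin (Postn), a matricellular protein of collagen-rich tissue, had 951, 1104 and 1274 CPM in positive and 525, 439 and 441 CPM in negative cells at T6. At T9 it rose in both classes, to 2636, 2293 and 3945 CPM in positive and 1137, 930 and 1688 CPM in negative cells. Within each time the classes did not overlap, and the log2 fold change of 1.25 had the smallest adjusted p of the named genes (SE 0.07, adjusted p = 2.82e-13). Fibulin 1 (Fbln1) went the other way, with 228 ± 64.6 CPM against 379 ± 76.3 CPM (log2 fold change -0.74, adjusted p = 1.10e-06).

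Of 22 collagen processing and cross-linking genes, Plod1, Loxl2 and P4ha2, which hydroxylate or cross-link collagen, were higher by log2 fold changes of 0.58, 0.38 and 0.33. Adamts2, a procollagen N-propeptidase, was lower (log2 fold change -1.30, adjusted p = 0.000843). The Plod1 and P4ha2 calls were lost without plate 1 of T6. Among 17 matrix proteases and inhibitors, Adamtsl3 (log2 fold change 1.64, lost without plate 1 of T6) and the inhibitors Timp1 (0.68) and Timp2 (0.47) were higher and none was lower.

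**Figure D3:**
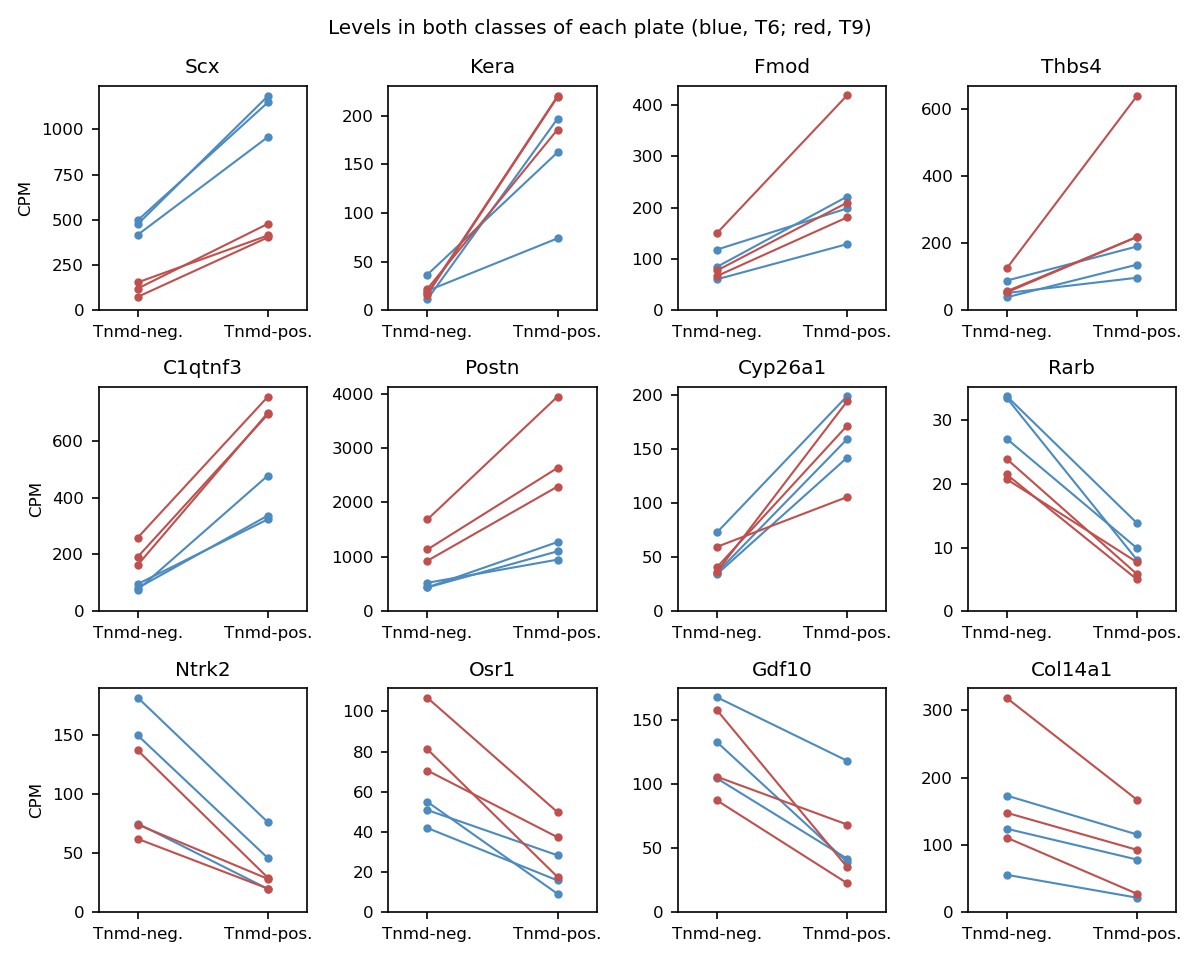
Each line joins the CPM of the Tnmd-negative and the Tnmd-positive cells of 1 plate (blue, T6; red, T9; 3 plates each) for 12 genes. For Scx, Kera, Fmod, Thbs4, C1qtnf3, Postn and Cyp26a1 all 6 lines rise, and for Rarb, Ntrk2, Osr1, Gdf10 and Col14a1 all 6 fall.

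By fold change, among genes that were called and moved the same way on all 6 plates, Kera was followed by Ptchd4 (log2 fold change 2.21), 1500015O10Rik (2.05), Cpm (2.04), C1qtnf3 (1.97), Cyp26a1 (1.84), Prss35 (1.81), Stk26 (1.80), Shisa2 (1.78) and Thbs4 (1.73). C1qtnf3, which encodes a secreted C1q/TNF-related protein, had the most UMIs of these. It had 337, 477 and 324 CPM in positive and 82.2, 76.0 and 96.3 CPM in negative cells at T6, and 754, 698 and 692 against 259, 163 and 191 CPM at T9. No positive sum reached down to a negative one (SE 0.10, adjusted p = 3.14e-13).

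Cpm, which encodes carboxypeptidase M, a membrane-bound peptidase, had 165 ± 56.5 CPM in positive and 41.5 ± 23.3 CPM in negative cells without overlap (adjusted p = 2.25e-10). Prss35, a serine protease family member, had 164 ± 50.5 against 50.2 ± 28.7 CPM, also without overlap (adjusted p = 5.99e-10). Stk26, a serine/threonine kinase, had 52.2 ± 17.9 against 14.9 ± 5.96 CPM (adjusted p = 1.08e-06). Ptchd4 was low and uneven, at 17.6 to 137 CPM in positive and 0.346 to 24.8 CPM in negative cells (adjusted p = 1.65e-05).

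The retinoic acid pathway had genes in both directions: of 16 tested, Cyp26b1 and Cyp26a1 were higher and Rarb, Aldh1a2 and Rdh10 lower. Cyp26a1 encodes a cytochrome P450 that degrades retinoic acid. It had 142, 159 and 199 CPM in positive cells at T6 and 172, 194 and 106 CPM at T9. Negative cells had 34.5, 35.9 and 73.0 CPM at T6 and 40.8, 36.7 and 59.7 CPM at T9. The classes did not overlap, and the log2 fold change was 1.84 (SE 0.15, adjusted p = 1.80e-09). Cyp26b1, which encodes a related enzyme, was low: positive cells had 40.6, 23.9 and 9.25 CPM at T6 and 1.29, 50.4 and 2.93 CPM at T9. Negative cells had 6.77, 1.15 and 11.8 CPM at T6 and 1.38, 1.48 and 0.760 CPM at T9, so it was higher on 4 of 6 plates only. Its log2 fold change of 2.46 (SE 0.59, adjusted p = 0.0301) lost the call without plate 2 of T6 or without plate 2 or 3 of T9.

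Rarb encodes retinoic acid receptor beta. It had 8.11, 9.94 and 13.9 CPM in positive and 33.5, 27.1 and 33.8 CPM in negative cells at T6, and 7.74, 5.04 and 5.87 against 20.8, 21.5 and 23.9 CPM at T9. Every positive sum lay below every negative sum (log2 fold change -1.66, SE 0.28, adjusted p = 0.000365). With cells thinned to 3000 UMIs the log2 fold change was -1.10 and did not pass (adjusted p = 0.275). Rarb, at 509 UMIs, overlaps Top2b on the opposite strand, which had 2575 UMIs, and whether the counting used strand is not given in the sources used here.

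Aldh1a2, the enzyme that makes retinoic acid from retinaldehyde, had 47.3, 17.9 and 27.8 CPM in positive and 69.9, 72.5 and 80.2 CPM in negative cells at T6. At T9 it had 16.8, 0 and 67.5 CPM against 36.0, 27.8 and 69.9 CPM. It was lower on 6 of 6 plates (log2 fold change -1.07, SE 0.27, adjusted p = 0.0448), but the difference on plate 3 of T9 was small, and the call was lost without any 1 of plates 1, 2 or 3 of T6 or plate 1 of T9. Rdh10, which makes retinaldehyde from retinol, was lower by 0.79 on the log2 scale (log2 fold change -0.79, adjusted p = 0.0252), a call lost without plate 1 or 2 of either time. The receptors Rara (-0.02) and Rarg (0.45) and the binding proteins Crabp1 (-0.20) and Crabp2 (0.10) did not pass.

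Cyp26a1 and Rarb are both textbook targets of retinoic acid receptors, which bind direct repeats of a short hormone response element, and here they differed in opposite directions. Their promoters are shown for that reason, as the 80 bases just before the RefSeq start site (GRCm38.p6, 5′ to 3′ on the gene's strand), with a match to the DR5 repeat in capitals. The match was searched on both strands as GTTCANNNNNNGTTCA, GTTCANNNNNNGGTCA, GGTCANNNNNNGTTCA or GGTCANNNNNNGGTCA.
Cyp26a1, chr19:37697728-37697807, plus strand: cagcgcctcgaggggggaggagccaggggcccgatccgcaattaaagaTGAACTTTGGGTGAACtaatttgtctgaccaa
Rarb, chr14:16575477-16575556, minus strand: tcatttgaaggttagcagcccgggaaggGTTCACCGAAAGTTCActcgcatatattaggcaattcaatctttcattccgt
The Cyp26a1 match reads on the reverse strand and ends 16 bases before the start site, and the Rarb match ends 36 bases before it. Such a match was found in 81 of 32851 RefSeq promoter windows (0.247%, windows of 300 bases). Of the 187 genes higher in positive cells 135 had a promoter in the RefSeq table and 2 of these had a match (Cyp26a1 and Kif1a), and of the 123 lower genes 95 had a promoter and only Rarb had one. Over all genes tested it was 14 of 7701. The windows of Tnmd, Kera, Cyp26b1 and Aldh1a2 held no match to these letters.

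The lower genes with the largest fold changes that were lower on all 6 plates were Rarb, Ntrk2 (log2 fold change -1.62), Frem1 (-1.59), Tnfrsf23 (-1.57), Tcf21 (-1.57), Thbd (-1.52), Negr1 (-1.51), Osr2 (-1.50), Tceal5 (-1.49) and Shox2 (-1.47). Ntrk2, which encodes the neurotrophin receptor TrkB, had the most UMIs of them. It had 46.0, 19.9 and 76.3 CPM in positive and 150, 75.2 and 182 CPM in negative cells at T6, and 28.4, 20.2 and 29.3 against 74.4, 62.3 and 137 CPM at T9. Positive cells were lower on every plate, and plates 1 and 3 of T6 were high in both classes (SE 0.15, adjusted p = 8.33e-09). Across plates the classes overlapped. The positive cells of plate 3 of T6 lay above the negative cells of plate 2 of T6 and plates 1 and 2 of T9.

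Tcf21, a factor of fibroblast and visceral mesenchyme lineages, had 9.60 ± 7.17 CPM in positive and 29.1 ± 8.10 CPM in negative cells without overlap (adjusted p = 0.00358). Osr2, a zinc finger factor of limb and irregular connective tissue, had 8.03 ± 4.30 against 25.4 ± 8.72 CPM, also without overlap (adjusted p = 0.00656). Its relative Osr1, named here after its values were seen, had 28.4, 15.9 and 9.25 CPM in positive and 50.9, 42.0 and 55.0 CPM in negative cells at T6, and 37.4, 17.6 and 49.9 against 70.6, 81.2 and 107 CPM at T9. It was lower on every plate (log2 fold change -1.31, SE 0.19, adjusted p = 4.52e-05).

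Some of these calls were thin. The calls of Tnfrsf23, Shox2 and Tceal5 were lost without any of 6, 5 and 5 of the plates: Tnfrsf23 without each plate, Shox2 without each but plate 3 of T6, and Tceal5 without each but plate 2 of T6. Shox2, at 298 UMIs, also lies over Rsrc1 on the opposite strand, which had 1678 UMIs.

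Most genes of the 2 signalling lists did not pass (23 of 27 and 32 of 37). The share that did not pass was larger among all genes tested (9867 of 10177). Of all genes, 1.84% were higher and 1.21% lower. Of 27 TGF-β ligands, receptors and response genes, Tgfbi (log2 fold change 0.66) and the ligand Tgfb2 (0.60, adjusted p = 0.00316) were higher. Id1 (-0.42) and Id3 (-0.45), inhibitory helix-loop-helix factors that respond to bone morphogenetic proteins, were lower, and both calls were lost without plate 2 of T6 or plate 2 of T9. The list's median log2 fold change was -0.03.

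Of 37 growth factor and receptor genes, Fgf9 (log2 fold change 1.13), Dkk3 (0.84) and Igf1r (0.38) were higher. Gdf10, a secreted member of the TGF-β superfamily, was lower with 54.2 ± 34.6 CPM in positive and 126 ± 32.1 CPM in negative cells (log2 fold change -1.22, adjusted p = 0.000375), and Igfbp6 was lower by a log2 fold change of -0.90. The Igf1r call was lost without any 1 of plates 1 and 3 of T6 and plates 2 and 3 of T9, and the Igfbp6 call without plate 1 or 2 of T6 or plate 2 of T9.

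Of 19 integrin and adhesion genes, Itga6 (log2 fold change 1.34), Vcam1 (0.83), Mcam (0.76) and Gja1 (0.67) were higher and Itga9 (-0.81) and Ncam1 (-0.38) lower. Gja1 encodes connexin 43, the gap junction protein that couples neighbouring tendon cells, and had 281 ± 40.6 CPM in positive and 177 ± 19.1 CPM in negative cells without overlap (adjusted p = 2.52e-05). The Itga6 call was lost without any 1 of plates 2 and 3 of T6 and plates 1 and 3 of T9, and the Mcam call without any 1 of plates 1 and 2 of T6 and plates 2 and 3 of T9.

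Markers of neighbouring lineages were checked by the same counts. Over all genes tested 1.84% were higher and 1.21% lower, so a single call in a list is no result about that list. Of 15 smooth muscle contractile genes, Actg2 (log2 fold change 1.21, lost without plate 3 of T9) and Tpm2 (0.53, lost without plate 2 of T6 or plate 1 or 3 of T9) were higher. The Actg2 difference was largest in cells with a single Tnmd UMI: it was 1.54 at exactly 1 UMI (adjusted p = 0.0365), 0.54 at 2 or more (adjusted p = 0.847) and 0.17 at 10 or more (adjusted p = 0.944). Acta2, smooth muscle actin, stood at 2479 ± 692 CPM in positive and 2156 ± 374 CPM in negative cells and did not pass (log2 fold change 0.18, adjusted p = 0.172), although it did without plate 2 of T9 (0.27, adjusted p = 0.0120). Of 7 cartilage genes Sox9, the chondrogenic factor that early tendon progenitors at the enthesis also express, was higher (170 ± 81.7 against 110 ± 48.7 CPM, log2 fold change 0.60, adjusted p = 0.000765).

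Of 11 fibroblast markers, S100a4 was higher (log2 fold change 1.49, adjusted p = 0.00671). Agtr2 (-1.35, adjusted p = 0.000765) and the chemokine gene Cxcl12 (-1.19, adjusted p = 0.00459) were lower. Of 16 mesenchymal progenitor genes Prrx2 was higher (0.80, adjusted p = 0.000765) and Dlk1 lower (-0.20, adjusted p = 0.0246, lost without plates 1 or 2 of T6 or plates 2 or 3 of T9, each alone). Hmga2 (0.14, adjusted p = 0.748) and Sox11 (-0.14, adjusted p = 0.735), both abundant in embryonic progenitors, did not pass.

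Top2a was the 1 gene called higher of 35 cell cycle genes (log2 fold change 0.51, adjusted p = 0.0136, lost without plate 1 or 2 of T6), while the list's median was 0.29. Of 13 mitochondrially encoded genes mt-Co3 was lower (-0.19, adjusted p = 0.0216, lost without plate 2 of T6 or any 1 plate of T9), with a list median of -0.12. With 1.84% of all genes higher and 1.21% lower, 1 call in each of these lists says little about the list. The gene mt-Co3 overlaps mt-Atp6 on the same strand. The study tallied reads of ambiguous assignment apart from assigned reads, so reads in the overlap may be missing from both counts.

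Parietal endoderm markers summed to 726 to 2317 CPM in positive and 431 to 1314 CPM in negative cells, and of 12 tested only Col4a2 was called (log2 fold change 0.55, adjusted p = 0.00144). This single call, with 1.84% of all genes higher, is no result about the list. Col4a2 is also made by mesenchymal cells, and its start adjoins that of Col4a1 on the opposite strand. Without all cells that met the pluripotent or endoderm marker limits, 218 genes were higher and 155 lower. Of pluripotent (3 tested), epithelial (5), neural (2), adipocyte (2) and skeletal muscle (2) markers none was called. Neural markers summed to 103 to 331 CPM in positive and 271 to 541 CPM in negative cells, adipocyte markers to 3.98 to 229 and 25.6 to 66.5 CPM, and skeletal muscle markers to 17.6 to 896 and 52.7 to 227 CPM. The part of these cells in the results was not tested. Of 2 endothelial markers Kdr was lower (-0.88, adjusted p = 0.0247), a call lost without any 1 plate of T6 or plate 2 of T9.

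The positive class was not uniform. Cells with exactly 1 Tnmd UMI had a mean Scx level of 309 ± 226 CPM, near the 290 ± 193 CPM of cells with none, whereas cells with 2 to 9 had 1024 ± 585 CPM and cells with 10 or more had 1321 ± 642 CPM (SD over 6 plates throughout). Kera had 20.7 ± 8.66, 68.6 ± 60.2, 190 ± 133 and 299 ± 189 CPM over the same 4 classes. Thbs4 had 69.4 ± 32.0, 56.7 ± 51.4, 242 ± 211 and 578 ± 531 CPM. The means of all 3 genes were highest where Tnmd was highest, but the spread between plates was wide and the top 2 classes overlapped.

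Among the lower genes the order varied. Ntrk2 had 113 ± 49.3, 60.0 ± 30.2, 21.5 ± 14.5 and 13.2 ± 8.93 CPM from no Tnmd UMI to 10 or more. Osr1 had 67.7 ± 23.7 and 57.6 ± 37.9 CPM at 0 and 1 UMI, but 8.90 ± 6.12 and 7.26 ± 10.5 CPM at 2 to 9 and at 10 or more. Aldh1a2 likewise had 59.4 ± 21.8 and 60.7 ± 63.5 CPM at 0 and 1, and 4.61 ± 5.78 and 13.4 ± 21.2 CPM above. For Osr1 and Aldh1a2 the means at 1 UMI were close to those of negative cells. Col14a1 had another order, with 155 ± 89.1, 76.7 ± 76.5, 82.0 ± 71.9 and 111 ± 136 CPM, and its call was lost at 10 or more UMIs (log2 fold change -0.75, adjusted p = 0.112).

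Fitted against the negative cells on their own, the cells with exactly 1 Tnmd UMI differed in 3 higher and 4 lower genes. Of the 187 higher genes 176 could be tested there and 135 had the same sign, and of the 123 lower genes 122 of 123 had it. This is a description, since these cells were among those that had chosen the genes. Median log2 fold changes of these groups were 0.16 and -0.44, against 0.65 and -0.70 for all positive cells. Cells with 2 or more UMIs gave 276 higher and 227 lower genes.

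**Figure D4:**
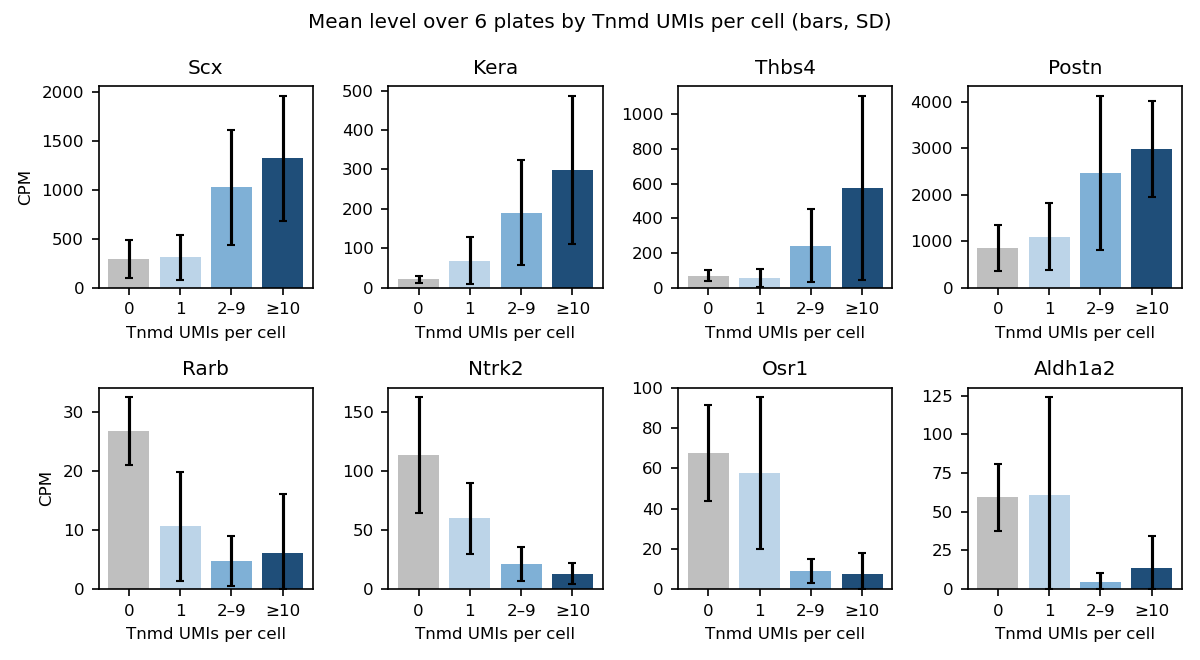
Bars give the mean CPM over 6 plates for cells with 0, 1, 2 to 9, and 10 or more Tnmd UMIs (1897, 119, 113 and 63 cells), and error bars give the SD between plates, stopped at 0 below. Scx, Kera, Thbs4 and Postn are highest in the 2 classes with most Tnmd, and Rarb, Ntrk2, Osr1 and Aldh1a2 are lowest there.

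The comparison was then asked at each time point. With T6 plates alone 78 genes were higher and 46 lower, and with T9 plates alone 91 and 39. All 186 of the higher and 122 of the lower genes that could be tested at T6 had the same sign there, as had the 183 and 121 tested at T9, which is a description since these plates had chosen the genes. A test of the difference between T9 and T6 called 0 of 10177 genes (edgeR quasi-likelihood test and DESeq2 alike), with 489 genes (4.80%) at an unadjusted p under 0.05 and a lowest adjusted p of 0.227. Scx was among those 489, with log2 fold changes of 1.22 at T6 and 1.92 at T9.

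T3 plates were not used to choose these genes and held 32 positive cells, with sums of 52931 to 80512 UMIs. At T3, 7 of 8731 genes (0.0802%) were higher and 8 (0.0916%) lower in positive cells. Higher were Prss35 (log2 fold change 3.15), Dkk3 (2.33), Anxa1 (2.17), Ogn (2.13), Htra1 (1.72), Tspan6 (1.51) and Timp2 (1.09). The lower ones included Aldh1a2, with 9 UMIs in positive and 1674 in negative cells (-2.56, adjusted p = 0.000629), Fbln1 (-1.74), Sfrp1 (-1.84), and the contractile genes Tagln (-4.45, 1 UMI in positive cells) and Acta2 (-1.74).

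Of the 187 genes higher at T6 and T9, 163 were tested at T3 and 120 (73.6%) lay above 0, against 34.4% of all genes. Of the 123 lower genes 109 were tested and 93 (85.3%) lay below 0, against 65.6% of all. The median log2 fold change at T3 was 0.47 for the higher group, and -0.26 for all genes, so T3 values are read relative to that shift. Acta2, lower in positive cells at T3, had a log2 fold change of 0.18 at T6 and T9, and the difference between these times was not tested.

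In the Achilles tendon of Scx_KO mice, where Scx itself is the targeted gene, Scx read 103 and 81.3 CPM in Scx_Wt and 23.1 and 25.1 CPM in Scx_KO samples (log2 fold change -1.88, adjusted p = 6.87e-05). The reads that remained were not placed along the gene. Tnmd read 1460 and 1257 CPM in Scx_Wt against 268 and 264 CPM in Scx_KO tendon, 4.93-fold lower (log2 fold change -2.30, SE 0.20, adjusted p = 3.99e-05). The genes that differed between Tnmd classes in culture were looked up in this independent comparison. Of 14602 genes tested there, 339 (2.32%) were lower and 323 (2.21%) higher in Scx_KO.

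Of the 187 genes higher in Tnmd-positive cells 182 were tested in tendon, and 26 (14.3%) were lower and 10 (5.49%) higher in Scx_KO. Of the genes tested in both data sets, 1.91% were lower and 1.95% higher. Of the 123 genes lower in positive cells 113 were tested, and 3 (2.65%, Crispld2, Spock3 and Kdr) were lower and 12 (10.6%) higher in Scx_KO. By sign alone, 55.5% of the higher group and 51.3% of the lower group lay below 0 in Scx_KO, against 48.9% of genes tested in both. The median log2 fold changes were -0.07, -0.02 and 0.01, so neither group moved far as a whole. These values describe the groups, and no test of the overlap was made.

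Of the 10 genes with the largest fold changes in culture, Kera, 1500015O10Rik, Cpm, C1qtnf3, Cyp26a1, Prss35 and Stk26 were among the 26, whereas Ptchd4 (-1.03), Shisa2 (-0.07) and Thbs4 (-0.68) did not pass in tendon. Kera read 596 and 613 CPM in Scx_Wt and 231 and 223 CPM in Scx_KO (log2 fold change -1.37, adjusted p = 0.000685). Fmod read 5544 and 4925 CPM against 1383 and 1358 CPM (-1.89, adjusted p = 0.000860). Cyp26a1 (-2.19), Cyp26b1 (-1.18), Cpm (-1.78), Prss35 (-2.41), Stk26 (-1.67) and C1qtnf3 (-1.03) were lower as well. Cyp26a1 was thus lower in Scx_KO tendon and higher in Tnmd-positive cells on all 6 plates, and Cyp26b1 was lower in tendon but higher on only 4 of 6 plates. Aldh1a2 (-0.04) and Rarb (-0.08) did not pass in tendon.

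Some matrix genes went the other way. Postn read 1129 and 665 CPM in Scx_Wt and 2246 and 2976 CPM in Scx_KO tendon (log2 fold change 1.60, adjusted p = 0.00718), although it was among the genes most clearly higher in Tnmd-positive cells. Aspn (1.36), Col5a2 (1.23) and Cilp (3.51) likewise were higher in Scx_KO tendon. Mkx, near the threshold between the Tnmd classes, read 88.2 and 81.5 CPM against 23.5 and 27.0 CPM in tendon (-1.70, adjusted p = 0.000142). Col14a1 (1.47), Itga9 (1.07), Shox2 (0.98) and Dlk1 (0.89), lower in positive cells, were higher in Scx_KO.

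**Figure D5:**
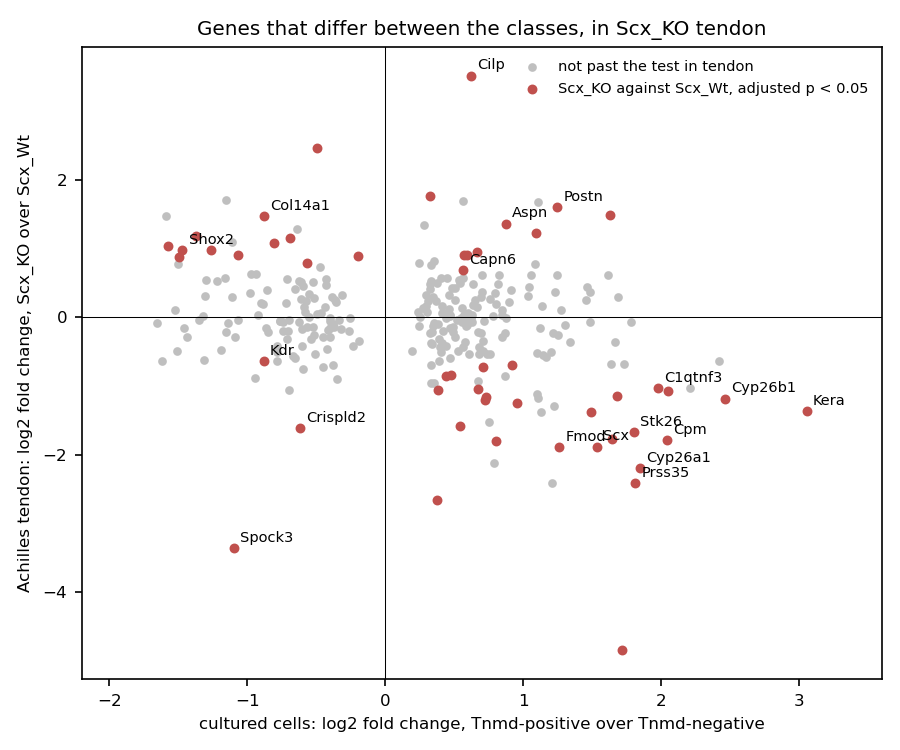
Each point is a gene that differed between the Tnmd classes and was tested in tendon, placed by its log2 fold change between Tnmd-positive and Tnmd-negative cultured cells (horizontal) and between Scx_KO and Scx_Wt Achilles tendon (vertical). Red points passed the test in tendon; Kera, Fmod, Cyp26a1, Cpm and Prss35 lie lower right, while Postn, Aspn and Cilp lie upper right.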

How the data were processed

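Single-cell RNA was measured by CEL-Seq2, which tags the 3′ end, on 12 plates of 384 wells, and bulk poly(A) RNA in 4 Achilles tendon samples. The authors deposited counts for both: UMI counts per gene and well, and read counts per gene and tendon sample, not normalized. Per the labels, reads were mapped to GRCm38 with HISAT2 (2.2.1 for cells, 2.0.4 for tendon), assigned with featureCounts (1.5.0 for tendon) and, for cells, collapsed with UMI-tools 1.0.1. Whether the cell counting used strand is not given in the sources used here. CEL-Seq2 reads cover mainly the 3′ end of a gene, and a short UMI can undercount very abundant genes.

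From these files, wells with at least 200 genes and 3000 UMIs were kept, and 3 entries outside Ensembl (0.0642% of UMIs) were left out. Doublets had been gated out at sorting by the study and no doublet caller was run. UMIs were summed per plate and Tnmd class without Tnmd, and sums were fitted in edgeR 4.0.16 (R 4.3.3) with filterByExpr, TMM and a robust quasi-likelihood fit on plate and class. Plate is thus the replicate block, since both classes come from the same library (correlation of their deviations 0.314 to 0.516 over the 6 plates). The difference between T9 and T6 was an added interaction term. Fold changes are from this fit, and the CPM printed are plain sums over the class total, without TMM factors. Shares and depths were compared by an exact sign-flip test over plates. T3 was fitted alone in the same way. Tendon counts (11188270 to 12398560 per sample) were fitted on genotype alone, with 2 samples each. Depth per class sum was 340931 to 3728120 UMIs.

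Genes were placed with GENCODE M21 (29528 of 29629 IDs) and promoters came from RefSeq (GRCm38.p6). The scripts were tested on simulated data. Genes were named as the 10 largest called fold changes per direction with the same sign on all 6 plates and at least 50 UMIs, up to 4 called members per direction of each list, and genes the study discusses. Some genes that met these rules are not reported here. The classes and lists were chosen with earlier results of these data known. DESeq2 1.42.0 and the other alternatives are given in the closing part, and figures were drawn with matplotlib 3.10.9.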

Additional observations from a re-analysis of the deposited data

How the results depend on the processing

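The counts of genes higher and lower in Tnmd-positive cells (187 and 123) were 172 and 74 with DESeq2, 208 and 112 with its size factors, 168 and 276 without the filter on low counts, and 31 and 8 with no replicate block for the plate. On thinned counts they were 107 and 67, and with the class also taken from thinned counts 76 and 80. T6 plates alone gave 78 and 46, T9 plates alone 91 and 39. The 3 plates with more reads outside any feature (1 and 3 of T6, 3 of T9) gave 73 and 30 and the other 3 gave 68 and 28, and 304 of 304 called genes tested in both sets had the same sign, a description, since these plates had chosen the genes. At 2 or more UMIs the counts were 276 and 227. Chosen after seeing the data, a limit of 10 or more gave 139 and 209, with a median of all genes of -0.19, and exactly 1 UMI gave 3 and 4. Leaving out 1 plate gave 138 to 168 higher and 59 to 108 lower genes, with 59 without plate 2 of T6, 66 without plate 2 of T9, and 81 without plate 1 of T6 or plate 3 of T9. The interaction with time gave 21 genes without the filter and 0 to 5 with 1 plate left out. The depth difference was 0.19 to 0.25 and the Scx share difference 25.3 to 29.1 points with 1 plate left out, each at an exact p of 0.0625, the smallest that 5 plates allow.

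Directions of named genes that turned over were Acta2 at 10 or more UMIs (-0.087), Sox11 on the plates with more reads outside features (0.056), and, at exactly 1 UMI, Aspn (-0.20), Cilp (-0.049), Col12a1 (-0.18), Col1a1 (-0.10), Col1a2 (-0.12), Fgf9 (-0.088), Foxp1 (-0.012), Hif1a (-0.19), Hmga2 (-0.092), Igf1r (-0.13), Kdr (0.072), Mcam (-0.45), Mkx (-0.044), P4ha2 (-0.0043), Sox9 (-0.10) and Thbs4 (-0.10). Over 90 named genes, 1452 values kept direction and side of the threshold, 455 lost the call, 6 gained it (Mkx 4 and Acta2 2, the latter without plate 2 of T9 and, at 0.34, on the plates with more reads outside features) and 18 turned over. With DESeq2, 7 named genes lost the call (Dlk1, Egr1, Igf1r, Rdh10, Shox2, Tceal5 and mt-Co3). The causes of these changes were not tested.

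In tendon 662 genes were called, 822 with DESeq2, 659 with its size factors and 1368 without the filter. Wt and KO samples share a number only (correlation of deviations 0.0845), and a fit with the replicate block by that number called 1287. Leaving out 1 sample gave 440 to 709, the lowest without replicate 1 of Scx_Wt. The lone sample is then assumed to vary like the other group.

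Depth limits the low genes most: with sums of 340931 UMIs at the least, a gene at a few CPM rests on single molecules, and 12 of the 90 named genes could not be tested on thinned counts.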

Other observations

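Genes of glucose use and of the response to low oxygen were also among those higher in Tnmd-positive cells. Both lists were drawn up after their values had been seen, so they are described without a test. Of 16 genes from glucose uptake to lactate, 6 were called higher (Slc2a1, Hk1, Ldha, Pgk1, Pgam1 and Aldoa) and 0 lower, with a median log2 fold change of 0.27 against -0.01 for all genes. Of all genes tested 1.84% were higher and 1.21% lower, but lists drawn up from seen values cannot be judged against these shares. Slc2a1, the glucose transporter Glut1, had 331, 231 and 245 CPM in positive and 202, 121 and 205 CPM in negative cells at T6, and 232, 262 and 252 against 132, 127 and 191 CPM at T9. The classes did not overlap (log2 fold change 0.70, SE 0.10, adjusted p = 2.03e-05). Ldha (0.36) and Pgk1 (0.33) differed less.

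Of 20 genes known to respond to low oxygen, 12 were higher and 0 lower, with a median of 0.43. This list too was drawn up with its values known, and the shares over all genes were 1.84% higher and 1.21% lower. Car9, a carbonic anhydrase, had the largest difference (log2 fold change 1.71, SE 0.33, adjusted p = 0.00123). It had 2.70, 5.97 and 23.1 CPM in positive cells at T6 and 42.6, 50.4 and 93.9 CPM at T9, against 3.87, 0.382 and 6.71 CPM and 19.4, 6.67 and 28.1 CPM in negative cells, so it was higher on 5 of 6 plates. Adm (0.84), Ndrg1 (0.82) and Hif1a (0.55), the oxygen-regulated transcription factor subunit, were higher on all 6 plates. In Achilles tendon Car9 read 60.6 and 53.4 CPM in Scx_Wt and 1.37 and 2.46 CPM in Scx_KO (log2 fold change -4.84, adjusted p = 3.52e-06), while Slc2a1, Adm, Ndrg1 and Hif1a did not pass there. Of the 20 genes of the low oxygen list 4 were lower and 1 (P4ha2) higher in Scx_KO tendon, with a median of -0.11. Of the 15 glucose genes tested in tendon 0 were called lower and 0 higher in Scx_KO, although their median was 0.65.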
